A study of Mus musculus with 16 samples.

Results

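The oxysterol-binding protein family is a set of lipid carriers that work where 2 membranes lie close together. A typical member grips the endoplasmic reticulum, reaches over to a second membrane and moves a lipid across, and several members exchange it for the phosphoinositide PI4P. PI4P is made on the target membrane by PI4-kinases and is broken down in the endoplasmic reticulum by the phosphatase encoded by Sacm1l, and this turnover drives the exchange. The founding protein carries cholesterol and also binds oxysterols, the oxidised cholesterol derivatives that gave the family its name.

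The family was followed here through 10 genes, Osbp, Osbp2, Osbpl1a, Osbpl2, Osbpl3, Osbpl5, Osbpl6, Osbpl8, Osbpl9 and Osbpl10, picked by gene name from a kidney table of 30277 genes. All 10 were in the table and all 10 passed the filter on low values. The set was gathered around Osbp2, which was chosen on its read-based difference between KlKl and control males in these same libraries. That comparison is therefore given as a description with no p-value for any member, and Osbp2 is not tested between the sexes either, because the male libraries entered the choice. The family genes Osbpl7 and Osbpl11 were followed beside the 10.

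The samples are polyadenylated RNA from whole kidneys of 16 C57BL/6J mice, 46 to 59 days old, in 4 groups of 4 libraries. Klotho, encoded by Kl, is a membrane protein of the kidney tubule through which FGF23, a hormone that lowers phosphate, signals. KlKl mice are homozygous for the recessive Kl mutation (Kl/Kl) and had renal disease per the labels. Control genotypes were mixed in males, with replicates 3 and 4 wild type (+/+) and replicates 1 and 2 heterozygous (+/Kl), and every female control was +/Kl. The labels list each library as a replicate with a name of its own, and p-values measure the spread between these libraries.

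Levels are given as RPM, reads scaled to 1000000 per library. Reads were recovered by multiplying the deposited TPM by each gene span, and were scaled between libraries by the median ratio over genes. Males had 13025469 to 20102503 recovered reads per library and females 8207664 to 14501862. Library names carry S numbers 17 to 24 in males and the same 8 numbers in females. The labels do not say whether libraries were handled in separate rounds. Any difference in handling that went with sex could not be told apart from sex. Kl followed the labels in every library, with 414 to 551 RPM in male controls, 8.97 to 55.7 in male KlKl, 136 to 322 in female controls and 3.81 to 13.3 in female KlKl. The kidney was recognisable in all groups. The proximal tubule list of 6 genes summed to at least 5121 RPM in every library, and Umod, the thick limb gene for uromodulin, stood at 1652 RPM or more.

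The start regions of Osbp2 are shown because this gene varied most between the groups. RefSeq (build GRCm38.p6) gives 3 start sites for it, all on the minus strand of chromosome 11, and each window runs from 250 bases before the start to 50 after. The windows lie at chr11:3863854-3864153 (start A), chr11:3774619-3774918 (start B) and chr11:3722178-3722477 (start C). Capitals mark the hexamer GGGCGG on either strand (CCGCCC as printed), a GC box of the kind bound by Sp1.
Osbp2 start A: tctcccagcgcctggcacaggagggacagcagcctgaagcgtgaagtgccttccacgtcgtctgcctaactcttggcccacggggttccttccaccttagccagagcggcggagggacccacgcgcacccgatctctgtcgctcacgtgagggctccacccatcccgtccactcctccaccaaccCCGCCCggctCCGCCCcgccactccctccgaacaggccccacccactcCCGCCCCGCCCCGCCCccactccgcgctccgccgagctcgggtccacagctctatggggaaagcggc
Osbp2 start B: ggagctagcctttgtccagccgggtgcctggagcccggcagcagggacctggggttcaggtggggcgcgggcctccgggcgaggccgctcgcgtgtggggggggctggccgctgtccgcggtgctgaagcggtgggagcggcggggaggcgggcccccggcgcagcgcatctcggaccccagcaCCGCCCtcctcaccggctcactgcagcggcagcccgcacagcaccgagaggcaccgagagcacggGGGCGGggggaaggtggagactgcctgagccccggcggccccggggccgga
Osbp2 start C: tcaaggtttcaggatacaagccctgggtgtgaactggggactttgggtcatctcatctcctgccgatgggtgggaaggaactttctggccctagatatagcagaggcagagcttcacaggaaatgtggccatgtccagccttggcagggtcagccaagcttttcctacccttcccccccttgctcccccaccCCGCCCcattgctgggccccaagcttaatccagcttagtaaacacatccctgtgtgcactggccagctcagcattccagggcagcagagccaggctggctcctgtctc
Window A held 5 matches, with overlapping ones counted apart, window B 2 and window C 1. Bases G and C made up 70.3%, 77.7% and 57.7% of windows A, B and C, beside a median of 52.7% over all 32851 windows in the table. Windows were read for 8 of the 10 genes, and not for Osbpl1a or Osbpl10. They numbered 14 in all, and 11 of these held the GC box, which 35.7% of all windows held. The hexamer AGAACA, the core that androgen and glucocorticoid receptors recognise, was searched on both strands (TGTTCT). It was in 0 of the 14 windows and in 6233 of all 32851 windows, which says only that these letters are not there. The table deposited with the expression values does not separate the start sites, so the start used in kidney was not analysed here.

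Osbp2 encodes ORP4, the closest relative of the founding protein. It spans chr11:3653731-3813904 on the minus strand in build mm39 (ENSMUSG00000020435). The 4 male controls stood at 21.3, 18.4, 27.2 and 21.5 RPM, a mean of 22.1 ± 3.7 (SD, n = 4). The 4 male KlKl kidneys stood at 12.9, 10.5, 8.21 and 10.6 RPM, a mean of 10.6 ± 1.92. Every male KlKl kidney was below every male control, and male KlKl 3 was the lowest of the males. Female controls stood at 1.72, 2.07, 2.31 and 2.40 RPM and female KlKl at 1.77, 1.48, 1.99 and 2.01. All 8 female kidneys lay below all 8 male kidneys, and the female groups overlapped. The female values rest on 17 to 25 reads per library, against 129 to 526 in males.

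On the log2(RPM + 0.5) scale the difference of Osbp2 between KlKl and control males was -1.03 (SE 0.16), a fold of 0.489. In females it was -0.18 (SE 0.16, 95% interval -0.52 to 0.16, limma adjusted p = 0.972). Whether these effects differ between the sexes was not tested. Male controls exceeded female controls by 3.10 (SE 0.16), a fold of 8.56, and KlKl males exceeded KlKl females by 2.25 (SE 0.16), a fold of 4.74. At the low female levels these folds depend on the 0.5 added. The control difference was 3.31 with 0.1 added and 2.88 with 1 added. Among 16455 tested genes 51 had a larger male excess in controls. Both wild-type male controls, at 27.2 and 21.5 RPM, lay above both heterozygous ones, at 21.3 and 18.4. The male difference was -0.74 within the libraries named CFK and -1.33 within those named CFdk (2 per group each). In every group replicates 1 and 2 are CFK and replicates 3 and 4 CFdk, so in male controls the name series and the control genotype cannot be told apart. The difference was -0.69 on the scale of the deposited TPM.

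**Figure D1:**
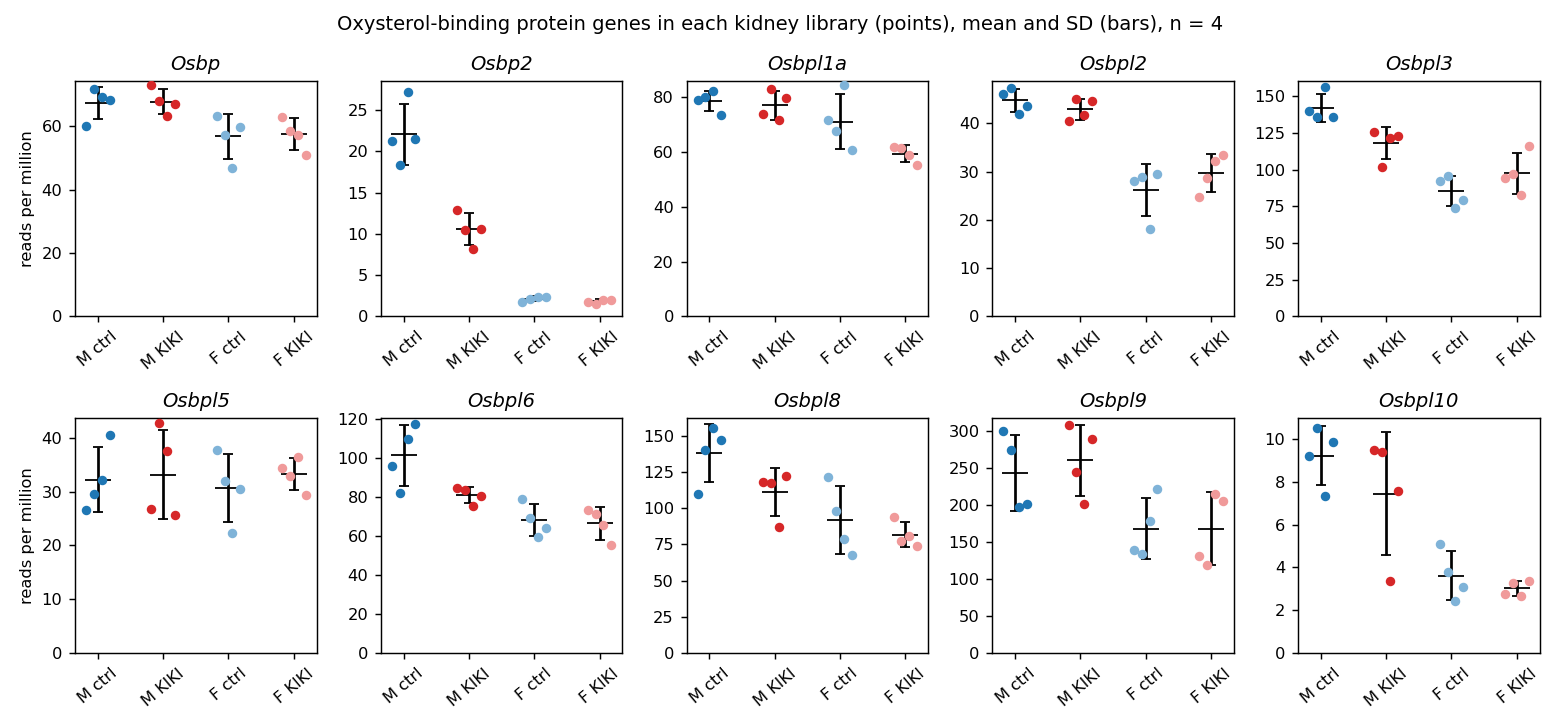
RPM (vertical axes, from 0) of the 10 genes in each of the 16 kidney libraries (points), with the group mean and SD (bars, n = 4), for male (M) and female (F) control (ctrl) and KlKl kidneys. Osbp2 steps down from 18.4 to 27.2 in male controls to 8.21 to 12.9 in male KlKl and to 2.40 or less in females.

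Markers of other cells were read beside Osbp2. Summed proximal tubule markers were highest in male controls, at 6960 to 8238 RPM. The sums of KlKl males, 5265 to 6911 RPM, overlapped those of females, 5121 to 5786 (control) and 5240 to 5715 (KlKl). Osbp2 did not overlap between those males and the females. Of the 6 markers 1, Slc5a2 at 0.01, had a positive difference between KlKl and control males, and the median was -0.23. Between KlKl and control females 4 of the 6 had a positive difference, with a median of 0.09. In either sex 0 of the 6 passed. Per 1000 reads of those markers Osbp2 had 2.64 to 3.30 reads in male controls and 1.51 to 2.11 in male KlKl. The ratio was 0.298 to 0.469 in female controls and 0.274 to 0.38 in female KlKl. Which cells hold the Osbp2 RNA was not tested, so this ratio is a description only. In whole kidney RNA, fewer cells of a type and less RNA per cell cannot be told apart. Of 17 erythroid markers 14 were in the table and 6 were tested. The sum of the 14 reached higher in KlKl males, at 89.7 to 539 RPM against 16 to 171 in control males, with overlap. Between these groups 0 of the 6 tested passed. In females the sum ran from 9.11 to 220 RPM in controls and 27.6 to 82.8 in KlKl.

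The genes most like Osbp2 over the 16 libraries were named by Pearson's r of log2 values, as a description in which the 16 points share the 4 groups. They were taken from 13069 genes with a mean of at least 1 RPM. Pseudogenes and unnamed gene models were left out. Pzp, a broad protease inhibitor, had an r of 0.98 and group means of 60.7, 19.4, 0.455 and 0.211 RPM in male controls, male KlKl, female controls and female KlKl. Slco1a1, an organic anion transporter of the proximal tubule, had an r of 0.973 and means of 233, 50.3, 0.424 and 0.455 RPM in the same order. Chst11, a chondroitin sulfotransferase, had an r of 0.976 with means of 54.3, 21.9, 3.72 and 4.57 RPM. All of these had the same order as Osbp2 from male controls to male KlKl to females. Serpinf2, which encodes alpha-2-antiplasmin, had an r of 0.977, and the lysosomal sulfatase gene Galns one of 0.974. Washc5, a subunit gene of the endosomal WASH complex, Gbf1, an activator of Arf1 at the Golgi, and Gsap had r of 0.976, 0.973 and 0.972 with smaller steps. Gbf1, for example, averaged 54.6 RPM in male controls and 26.9 in female controls. With the group means removed, r with Osbp2 fell within 0.466 (Washc5) to 0.689 (Serpinf2) for the 8 genes. The choice by r over the same libraries favours such positive values, so they are no separate evidence.

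**Figure D2:**
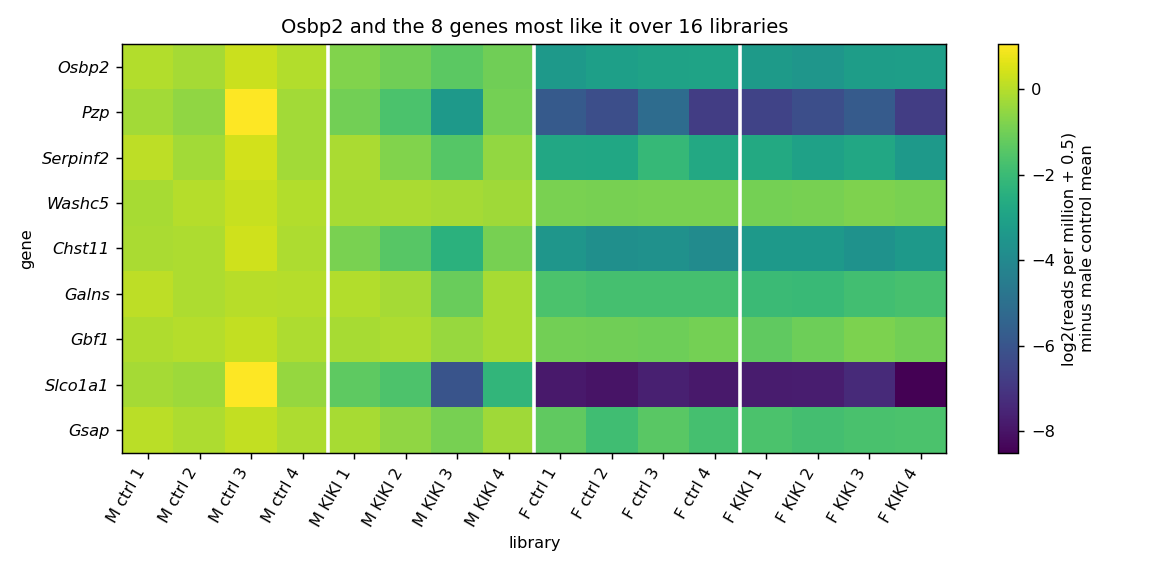
Colour shows log2(RPM + 0.5) minus the male control mean of each gene (rows) in each library (columns, M male, F female, white lines between groups). The genes are Osbp2 and the 8 with the highest r to it among the 13069 compared. Slco1a1 and Pzp show the widest range, and male KlKl 3 is the darkest male library for both.

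Because genes differ in length, levels between members were compared as RPM per kilobase of annotated exon (GENCODE M21). In male controls Osbpl9 came first at 34.8 ± 7.41, apart from all others. Osbpl3 at 15.8 ± 1.07, Osbp at 15.0 ± 1.12 and Osbpl8 at 14.7 ± 2.10 followed with overlapping ranges. Osbpl2 (10.7 ± 0.572), Osbpl1a (10.1 ± 0.475), Osbpl6 (10.1 ± 1.56) and Osbpl5 (6.56 ± 1.22) formed a run in which each overlapped the next in the order. Osbp2 at 3.47 ± 0.581 and Osbpl10 at 1.79 ± 0.265 were the lowest and overlapped no neighbour. In female controls Osbp2 was the lowest of the 10 at 0.334 ± 0.048, below Osbpl10 at 0.702 ± 0.222. Whether the authors counted reads over exons alone is not given in the sources used here.

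In females, where the choice of the set used no library, the data showed no member past the threshold between KlKl and control kidneys. Of 10 members 0 passed (limma adjusted p under 0.05), beside 0.0182% of all 16455 genes, and 1 member had an unadjusted p under 0.05, beside 3.40% of genes. Limma voom on recovered reads called 0 members as well. The groups did not overlap for 0 members, beside 2.04% of genes. The median difference of the 10 members was -0.03, with 4 of them above 0, beside 0.005 over all genes.

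The member with the unadjusted p under 0.05 was Osbpl1a, whose product ORP1 sits on late endosomes and senses their cholesterol. Female controls stood at 71.5, 67.4, 84.3 and 60.7 RPM and female KlKl at 61.8, 61.5, 58.8 and 55.3. Female control 4 lay within the KlKl range, and female control 3, the shallowest library, was the highest. The difference was -0.25 (SE 0.10, 95% interval -0.46 to -0.03, limma adjusted p = 0.972). The founding gene Osbp had a difference of 0.02 with an interval of -0.20 to 0.25. Osbpl10 had the widest interval, -0.73 to 0.37. Macrophage markers, summed, ran from 234 to 284 RPM in female controls and from 307 to 340 in female KlKl. Of these 10 markers 0 passed and 7 had positive differences, with Lyz2 at 0.83 and Cd74 at 0.64 ahead and Csf1r at -0.15 last.

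The male comparison chose the set, so its counts are a description from which nothing is read. The 1 of 10 members past the threshold was Osbp2, whose choice fixed this, beside 0.0304% of genes. The groups did not overlap for 2 members, Osbp2 and Osbpl3, beside 4.55% of genes. Osbpl3 encodes ORP3, which acts where the endoplasmic reticulum meets the plasma membrane and binds the small GTPase R-Ras. Its male controls stood at 140, 136, 156 and 136 RPM and its male KlKl kidneys at 125, 102, 122 and 123, a difference of -0.27 (SE 0.12). This difference was 0.027 on the scale of the deposited TPM. Osbpl6, the closest relative of Osbpl3, had a difference of -0.31 (SE 0.13) and Osbpl8 one of -0.31 (SE 0.17). Osbp, Osbpl1a, Osbpl2 and Osbpl5 had differences between -0.06 and 0.02. Over all genes the male median was -0.02, and the 10 members had a median of -0.16 with 3 positive.

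**Figure D3:**
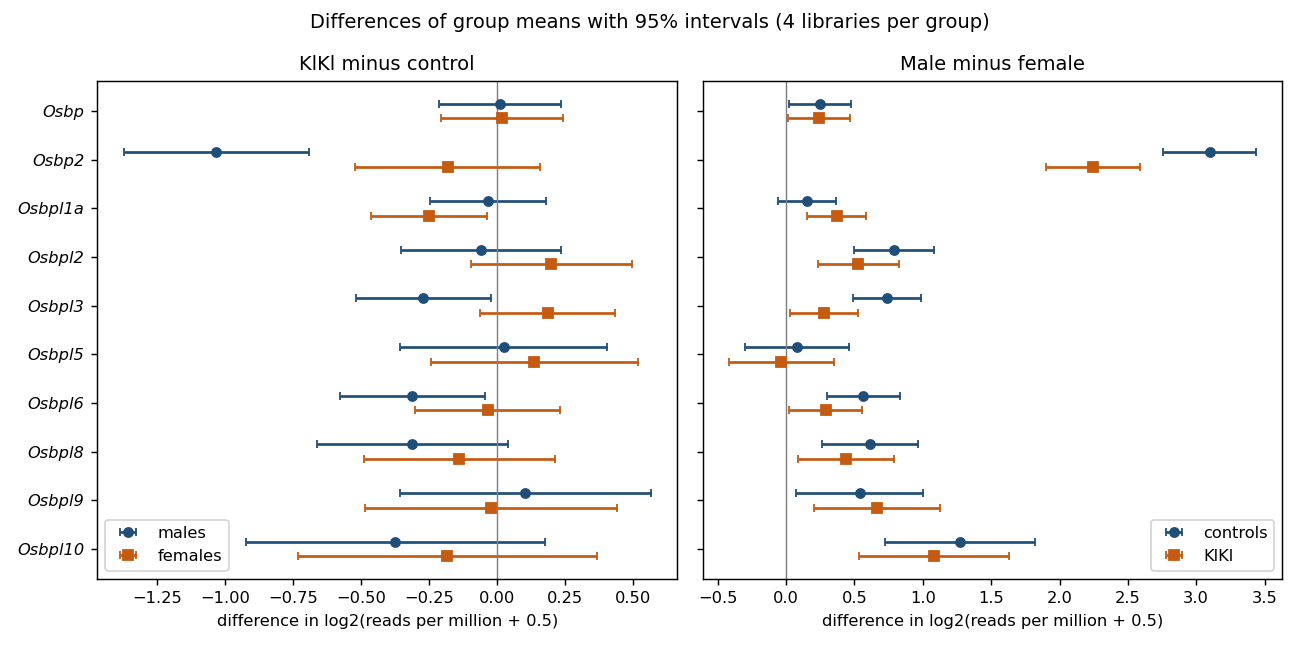
Differences of group means in log2(RPM + 0.5) with 95% intervals from limma (4 libraries per group) for KlKl minus control (left, males circles, females squares) and male minus female (right, controls circles, KlKl squares). Osbp2, which was chosen on the male difference on the left, has the lowest one there at -1.03. Its interval, -1.37 to -0.69, overlaps that of Osbpl10, -0.92 to 0.18. On the right Osbp2 lies apart from the other 9 at 3.10 and 2.25. The male intervals on the left and those of Osbp2 on the right are descriptions and no test.

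The sexes differed in several members other than Osbp2. In controls 5 of the 9 members tested passed (limma), all higher in males: Osbpl10, Osbpl2, Osbpl3, Osbpl8 and Osbpl6. The background was high, since 42.2% of all genes passed in either direction and 23.2% were higher in males, so a share of this kind was common among genes at large. The median of the 9 members was 0.57 beside 0.007 over all genes, and all 9 differences were positive. The groups did not overlap for 4 of the 9 in controls, beside 37.8% of genes, and for 4 of the 9 in KlKl, beside 32.3%. In KlKl kidneys 4 of 9 passed, Osbpl10, Osbpl9, Osbpl2 and Osbpl1a, all higher in males, beside 28.9% of genes in either direction and 15.8% higher. The median of the 9 in KlKl was 0.37 beside -0.002 over all genes. On the scale of the deposited TPM, which moved the median of all genes to 0.31 in controls and 0.43 in KlKl, 8 of 9 members passed in each. On that scale the calls over all genes split into 6120 higher and 1142 lower in controls, against 3822 and 3124 after median-ratio scaling. In KlKl they split into 6970 and 405, against 2605 and 2152.

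Osbpl10 encodes ORP10, which carries phosphatidylserine and works with the product of Osbpl9. Male controls stood at 9.18, 10.5, 7.35 and 9.83 RPM and female controls at 5.10, 3.81, 2.45 and 3.08, with no overlap. The difference was 1.27 (SE 0.26, limma adjusted p = 0.00115), a fold of 2.41. KlKl males stood at 9.47, 9.38, 3.37 and 7.55 RPM and KlKl females at 2.78, 3.29, 2.69 and 3.38. Male KlKl 3 lay within the female range, and the other 3 males lay above it. The difference in KlKl was 1.08 (SE 0.26, limma adjusted p = 0.00624). Within the Osbpl10 gene the ribosomal protein gene Rps27rt lies on the opposite strand and averaged 306 RPM. The library kit keeps strand per the labels, and whether counting used it is not given in the sources used here.

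Osbpl2 encodes ORP2, a short member found at the plasma membrane and on lipid droplets. Its male controls stood at 46.1, 47.3, 42.01 and 43.5 RPM and its female controls at 28.1, 28.9, 18.1 and 29.5. In KlKl the males stood at 40.5, 44.9, 41.8 and 44.6 RPM and the females at 24.7, 28.7, 32.2 and 33.4. Every male kidney was above every female kidney, and female control 3 was the lowest of all. The difference was 0.79 in controls (SE 0.14, limma adjusted p = 0.000394) and 0.53 in KlKl (SE 0.14, limma adjusted p = 0.0103).

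Osbpl3 was higher in male controls, at 136 to 156 RPM, than in female controls, at 92.1, 95.7, 74.1 and 79.6. The difference was 0.74 (SE 0.12, limma adjusted p = 0.000174) and held within each name series, at 0.56 and 0.92. In KlKl the males, at 102 to 125 RPM, and the females, at 82.8 to 116, overlapped and the difference was 0.28 (SE 0.12, limma adjusted p = 0.0831). Without female KlKl 4, the highest of the females, the adjusted p was 0.0346. Osbpl6 averaged 67.9 ± 8.21 RPM in female controls and 101 ± 15.7 in male controls, a difference of 0.57 (SE 0.13, limma adjusted p = 0.0021). It was 0.26 within the CFK libraries and 0.87 within the CFdk libraries. In KlKl the male and female ranges of Osbpl6 did not overlap, and the difference was 0.29 (SE 0.13, limma adjusted p = 0.093).

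Osbpl8 and Osbpl5 encode ORP8 and ORP5, which are anchored in the endoplasmic reticulum and bring phosphatidylserine to the plasma membrane. Osbpl8 averaged 138 ± 19.8 RPM in male and 91.6 ± 23.4 in female controls, a difference of 0.61 (SE 0.17, limma adjusted p = 0.00771). That difference was 0.18 within the CFK libraries and 1.04 within the CFdk libraries. With heterozygous controls alone, which leaves 2 male controls, both CFK, the difference was 0.48 (adjusted p = 0.108) for Osbpl8 and 0.39 (adjusted p = 0.0622) for Osbpl6. In KlKl Osbpl8 differed by 0.44 (limma adjusted p = 0.0577), and the adjusted p was 0.0199 without male KlKl 3, 0.0323 without female control 1, 0.0452 without female control 3 and 0.0393 without female control 4. Osbpl5 had group means of 32.2 and 30.6 RPM in male and female controls and 33.2 and 33.3 in KlKl. Its sex difference was 0.08 in controls (95% interval -0.30 to 0.46), with -0.30 within the CFK and 0.46 within the CFdk libraries, and -0.04 in KlKl (-0.42 to 0.35).

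Osbpl9 encodes ORP9, a PI4P carrier at contacts between the endoplasmic reticulum and the Golgi. In females its values divided by name series, with 120 to 139 RPM in the 4 CFK libraries and 178 to 222 in the 4 CFdk libraries. Male controls divided the other way, at 300 and 276 RPM in CFK (+/Kl) and 198 and 201 in CFdk (+/+). Series and genotype cannot be told apart there. KlKl males overlapped, at 308 and 245 RPM in CFK and 201 and 290 in CFdk. The male excess in controls was 1.07 within the CFK libraries and 0.003 within the CFdk libraries, and in KlKl it was 1.13 and 0.20. The pooled difference was 0.54 in controls (SE 0.22, limma adjusted p = 0.0577) and 0.66 in KlKl (SE 0.22, limma adjusted p = 0.0317). The KlKl call ended without male KlKl 1 (adjusted p = 0.0881), male KlKl 2 (0.0558), male KlKl 4 (0.0805), female KlKl 1 (0.0975) or female KlKl 2 (0.115), while the difference stayed between 0.52 and 0.69. In controls the adjusted p was 0.049 without male control 3, 0.0482 without male KlKl 3, 0.0264 without female control 4 and 0.04998 without female KlKl 2. The 3′ end of Osbpl9 reaches into Nrd1, a protease gene on the opposite strand that averaged 93.5 RPM.

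Osbpl1a was higher in KlKl males, at 73.8, 82.8, 71.5 and 79.5 RPM, than in KlKl females, with no overlap and a difference of 0.37 (SE 0.10, limma adjusted p = 0.0124). In controls the difference was 0.15 (limma adjusted p = 0.23), or an adjusted p of 0.0401 without female control 3. Osbp stood at 60.1 to 71.7 RPM in male controls and 46.9 to 63.1 in female controls, a difference of 0.25 (limma adjusted p = 0.0694), with an adjusted p of 0.0474 without male control 1 and 0.0388 without female control 1. In KlKl its groups did not overlap, at 63.4 to 73.0 and 50.8 to 63.1 RPM, with a difference of 0.24 (limma adjusted p = 0.0988) and an adjusted p of 0.0423 without female control 3. The family genes Osbpl7 and Osbpl11 had differences of -0.10 and 0.19 in controls and did not pass (limma adjusted p = 0.708 and 0.133).

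The partners of the family at membrane contacts were read from a list of 14 genes, all tested. Between the sexes 6 of the 14 were higher in males in controls and 6 in KlKl, with 0 lower. Over all 16455 genes 23.2% were higher in males in controls and 15.8% in KlKl, and 3124 and 2152 genes were lower. Between KlKl and control 0 of the 14 passed in either sex. Sacm1l, the PI4P phosphatase, averaged 46.1 ± 10.0 RPM in male controls and 8.39 ± 6.05 in female controls, a difference of 2.62 (limma adjusted p = 6.81e-05). Pi4ka, the PI4-kinase of the plasma membrane, averaged 148 ± 34.5 and 57.2 ± 4.32 RPM, a difference of 1.34 (limma adjusted p = 2.25e-05). Vapb, an anchor of the family in the endoplasmic reticulum, differed by 0.46 (limma adjusted p = 0.00324). The list median was 0.26 in controls, beside 0.007 over all genes.

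Other lipid transfer genes gave 9 of 15 higher in control males and 8 of 15 in KlKl males, with 0 lower and 0 between KlKl and control. Pitpnb, a phosphatidylinositol carrier, differed by 1.09 (limma adjusted p = 4.98e-05) in controls and Npc1, the lysosomal cholesterol exporter, by 0.82 (limma adjusted p = 0.000151). In the list of oxysterol synthesis and sensing 6 of 15 genes were higher and 1 lower in control males, and 3 of 15 were higher and 1 lower in KlKl males. Over all genes 23.2% were higher in control males and 15.8% in KlKl males. Cyp7b1, the hydroxylase that clears oxysterols, averaged 170 ± 49.2 RPM in male controls and 2.62 ± 0.72 in female controls, a difference of 5.76 (limma adjusted p = 5.89e-06). In KlKl males Cyp7b1 averaged 56.5 ± 50.8 RPM, from 5.34 to 127, and its difference from male controls was -2.19 (SE 0.60, limma adjusted p = 0.428). Ch25h, which makes 25-hydroxycholesterol, was lower in control males by -1.03 (limma adjusted p = 0.000785) at levels of 0.59 ± 0.14 and 1.75 ± 0.41 RPM.

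**Figure D4:**
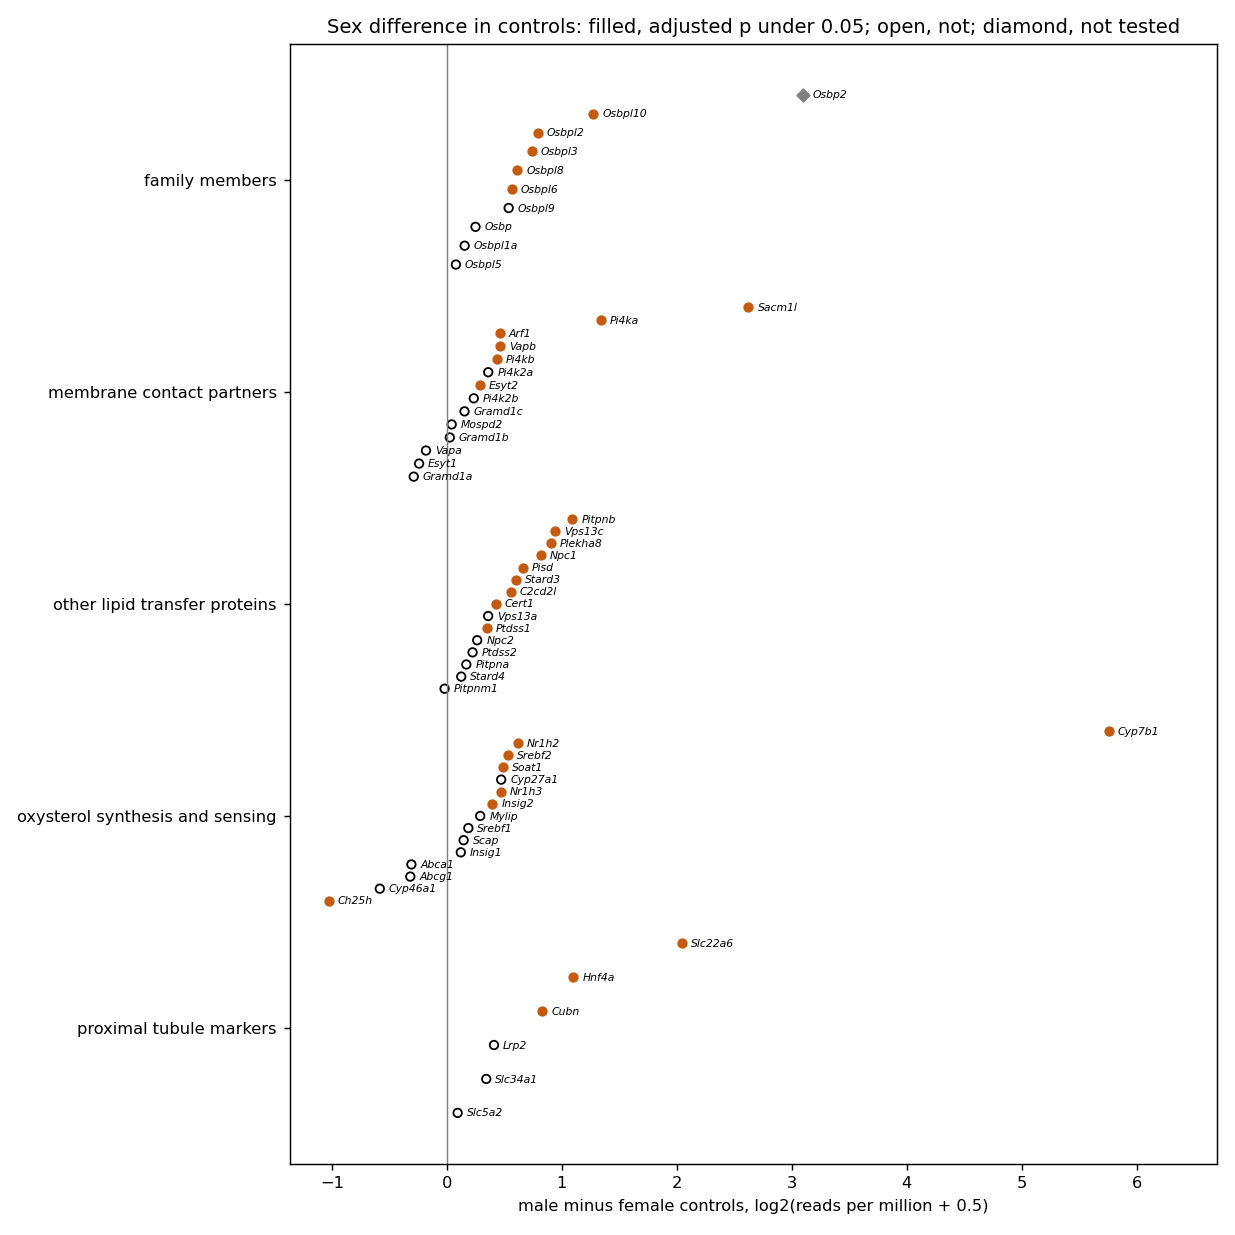
Male minus female control difference in log2(RPM + 0.5) for each member and for the genes of 4 lists (rows grouped by list, one point per gene). Filled points passed (limma adjusted p under 0.05), open points did not, and the diamond is Osbp2, which was not tested. Osbp2 at 3.10 lies beyond the other members, and Sacm1l at 2.62 and Cyp7b1 at 5.76 lead their lists.

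Some markers of cell types also differed between the sexes, as did many genes at large. Over all 16455 tested genes 3822 were higher and 3124 lower in control males. In control males 3 of 6 proximal tubule markers were higher, led by the organic anion transporter gene Slc22a6 at 2.04 (limma adjusted p = 5.44e-05), with a list median of 0.62. Of 6 distal nephron markers 1, Slc12a1, was lower in control males, of 4 podocyte markers 1, Nphs1, and of 4 endothelial markers 1, Emcn, with 0 higher in each list. The medians of these lists were -0.20, -0.23 and 0.17, and 3 of the 4 endothelial differences were positive. Of 10 macrophage markers 2, C1qa and Mrc1, were lower in control males and 0 higher. The part of these cell types in the sex differences of the members was not tested.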

How the data were processed

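The authors deposited 1 table of TPM for polyadenylated kidney RNA, with 1 column per library. Partek and build mm39 are named in the submitters' processing notes. Neither aligner nor counting rule is given in the sources used here. The columns were matched to libraries by name, and 1 repeated entry was dropped. Tested on the values, the deposited TPM sum to 309446 per library and follow reads plus 0.0001 divided by the length from start to end, so TPM times that length gives relative reads. Whole numbers, within 0.1, resulted for 81.2% of the values under 20 reads. Reads were scaled by median ratio over 17371 genes and expressed as RPM (reads per 1000000). Limma 3.58.1 in R 4.3.3, with a mean-variance trend and group means over all 16 libraries (12 residual degrees of freedom), tested log2(RPM + 0.5) for the 16455 genes with 1 RPM or more in at least 4 libraries. Adjusted p-values are two-sided and by the Benjamini-Hochberg method over all these genes, with a threshold of 0.05. A count of 0 allows up to 3 reads, 0.155 to 0.408 RPM, for counting error only.

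The members and lists were chosen with earlier results of these data known. Genes named are all members, list genes that pass (up to 4 per list), Kl, and the 8 genes most like Osbp2. Deviations of same-numbered libraries from their group means were correlated between groups, and 6 of 24 correlations were over 0.1. The highest lay between control and KlKl libraries of the same sex. For replicates 1 to 4 these were 0.253, 0.065, 0.227 and -0.169 in males and 0.142, 0.137, -0.045 and 0.141 in females. The replicate number was not used as a block in the main fit, and such a block was among the alternatives. Alternatives covered the pseudocount, filter, scaling, test, weights, covariates and libraries left out.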

Additional observations from a re-analysis of the deposited data

Results flagged for a closer look

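In 40 groups of 4 libraries (10 genes in 4 groups) 3 held a library far from the other 3, where chance flags about 1 in 20. Osbpl2 stood at 18.1 RPM in female control 3 against 28.1 to 29.5 in the other female controls. Osbpl3 stood at 102 RPM in male KlKl 2 against 122 to 125 in the other KlKl males. Osbpl8 stood at 87.0 RPM in male KlKl 3 against 117 to 122 in the other KlKl males.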

How the results depend on the processing

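Each value was recomputed under 31 alternatives, 16 of them leaving out 1 library. Between KlKl and control females 0 members passed under all 31, and the count of genes was 3, or 5 with array weights (whose estimation stopped before it converged) and 2 to 6 with 1 library left out. Between KlKl and control males the count of genes was 5. It was 8 on the deposited TPM scale, 30 with array weights, 3 with the replicate block, 10 with name series as a covariate, 3 with heterozygous controls only, 13 without female control 3 and male KlKl 3, 1 with the libraries of the comparison only and 1 to 10 with 1 library left out. The count of members there, 1, was fixed by the choice of Osbp2 and is no test. It was 0 with no filter, total reads scaling, the deposited TPM scale, the replicate block, heterozygous controls only and the libraries of the comparison only, and 0 to 1 with 1 library left out. The difference of Osbp2 stayed between -1.13 and -0.69 under all 31. Its excess in males over females ran from 2.73 to 3.37 in controls and from 2.03 to 2.51 in KlKl. The 2.73 was on the deposited TPM scale. There the constant added before the log exceeded every female value of Osbp2, 0.0068 to 0.0098 TPM, so it lessened the difference. The male difference of Osbpl3 turned to 0.027 on the deposited TPM scale, where the median over all genes was 0.26. Total reads scaling moved that median to 0.12 in males and 0.11 in females. Between male and female controls 6946 genes passed, or 3991 with heterozygous controls only and 5685 to 7366 with 1 library left out, and 5 members, or 8 on the deposited TPM scale and 8 with array weights. Between KlKl males and females 4757 genes passed, or 7375 on the deposited TPM scale, 8078 with array weights, 7195 without female control 3 and male KlKl 3 and 3247 to 6315 with 1 library left out. The 4 members there became 8, 7 and 7 under the first 3 of these. The calls of Osbpl10 and Osbpl2 in both sex comparisons, Osbpl3 in controls and Osbpl1a in KlKl were kept under all 31. Osbpl9 in KlKl was also lost with no filter (adjusted p = 0.0531). The replicate block changed no other call. Same-numbered libraries had correlations of -0.21 to 0.253. The causes were not tested. Depth limits Osbp2 in females, at 17 to 25 reads, and Osbpl10, at 18 to 187.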
